A study of Mus musculus with 6 samples.

Results

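The IkB family holds the inhibitors of NF-kB, and its 6 genes were followed here through tumour regulatory T cells with and without the floxed knockout of Ythdf2. Rows were chosen by gene identifier, through the symbols Nfkbia, Nfkbib, Nfkbie, Nfkbid, Nfkbiz and Bcl3 in the GENCODE M21 annotation, and all 6 were found among 54446 gene rows. Total RNA was sequenced from 6 libraries of regulatory T cells (Treg cells, suppressive CD4 T cells defined by the transcription factor Foxp3). They were sorted as live CD45+ CD4+ Foxp3-GFP+ cells out of subcutaneous tumours of B16F10, a mouse melanoma cell line. The 3 control libraries have the genotype Foxp3CreYthdf2fl/+, and the 3 labelled Ythdf2 cKO have Foxp3CreYthdf2fl/fl. Both groups therefore carry the Cre recombinase driven by Foxp3 and the same tumour, and the controls carry 1 floxed allele. The titles place control replicates 1 and 2 with Ythdf2 cKO replicate 1 in cage 1. Cage 2 holds control replicate 3 together with Ythdf2 cKO replicates 2 and 3. No age is given, and the labels do not tie libraries to individual mice, so p-values cover only the spread among the samples, part of which may be technical. The title of the series names an axis of YTHDF2, m6A and NF-kB, so the inhibitors of NF-kB are among the transcripts the comparison addresses.

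In resting cells, the classical IkB proteins hold NF-kB dimers in the cytoplasm by covering their nuclear localization signals with a run of ankyrin repeats. Signals from the T cell receptor or from TNF receptors activate the IkB kinase, the IkB protein is marked for destruction by ubiquitin, and the released dimer enters the nucleus. The dimer then switches on the gene of its own inhibitor, which closes a feedback loop. The nuclear members bind NF-kB subunits on DNA and can act as co-activators or repressors. NF-kB subunits are needed for the development and the effector state of Treg cells, and YTHDF2 is a reader protein that promotes the decay of mRNAs carrying m6A.

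Because NF-kB is known to drive some of its own inhibitors, the stretches before the start sites of a pair of classical members are shown. RefSeq windows (GRCm38.p6, the same assembly as mm10) were found for 5 of the 6 genes, not for Nfkbiz, and the 250 bases before each start were searched on both strands for the 10-base NF-kB consensus. Capitals mark the match, and each window reads 5′ to 3′ on the strand of its gene.
Nfkbia, chr12:55492648-55492897, minus strand: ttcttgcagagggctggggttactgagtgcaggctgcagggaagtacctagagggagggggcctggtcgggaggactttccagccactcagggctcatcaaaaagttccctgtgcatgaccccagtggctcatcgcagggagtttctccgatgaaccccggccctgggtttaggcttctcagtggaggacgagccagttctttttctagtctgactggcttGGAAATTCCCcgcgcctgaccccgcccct
Nfkbie, chr17:45555450-45555699, plus strand: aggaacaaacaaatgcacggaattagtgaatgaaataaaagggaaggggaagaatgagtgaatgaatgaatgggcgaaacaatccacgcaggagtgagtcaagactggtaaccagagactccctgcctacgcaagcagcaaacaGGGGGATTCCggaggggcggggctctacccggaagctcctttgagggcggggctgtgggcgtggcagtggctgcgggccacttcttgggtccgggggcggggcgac
The match of Nfkbia lies 29 to 20 bases before the start and reads GGGAATTTCC on the opposite strand. That of Nfkbie lies 106 to 97 bases before the start. Nfkbid has 3 RefSeq starts, and the window of the second holds a pair of matches, GGGACTTCCC (chr7:30422180-30422189) and, on the opposite strand, GGGGAATTCC (chr7:30422225-30422234). The windows of Nfkbib and Bcl3 held no match, which says only that these letters are not in this stretch. Of 32851 windows of the same length, 3.9% held at least 1 match. A match describes the sequence and is not a bound site.

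The libraries held from 5602053 (Ythdf2 cKO replicate 1) to 13602069 (control replicate 2) reads in genes. Ythdf2 cKO replicate 1 also had the fewest genes with a read, 14758, against 18395 to 20624 in the others. Ythdf2 itself stood at 106 ± 15.9 CPM (the read count scaled to library size with TMM factors; SD, n = 3) in control libraries, against 99.5 ± 8.14 CPM in those labelled Ythdf2 cKO. Its log2 fold change was -0.10 (edgeR adjusted p = 1), so the label is not mirrored in the gene's total count. Which exons the allele removes is not stated in the labels, so directions are given for the libraries as labelled. The Treg label held by its markers: Foxp3 ran from 325 to 608 CPM and Cd4 from 412 to 718 CPM. Tumour RNA differed by cage, with 15 melanoma markers summing to 63.2 to 625 CPM in cage 1 and 2968 to 6015 CPM in cage 2. Ythdf2 cKO replicate 1 was the lowest of all and control replicate 3 the highest, and the former held the highest CPM of 5 of the 6 members and the latter the lowest of 4.

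All 6 members passed the filter on low counts, and their level per length spanned 20.6-fold. Nfkbia (chr12:55489410-55492647, mm10), which encodes IkBalpha, the fast-resynthesized inhibitor, was the highest at 394 RPKM (CPM per kilobase of the gene's merged exons) on average over the 6 libraries, with a range from 279 to 514 RPKM. That put it at percentile 99.6 of the 13172 genes tested. Nfkbiz (chr16:55811375-55838899), which encodes the nuclear IkBzeta, followed at 115 RPKM, from 90.5 to 153 RPKM, and its range overlapped neither neighbour in the order. Nfkbid (chr7:30421732-30428746), encoding the nuclear protein IkBNS, averaged 51.1 RPKM, from 40.3 to 67.6 RPKM. Nfkbie (chr17:45555703-45563169), encoding IkBepsilon, averaged 42.6 RPKM, from 27.6 to 58.4 RPKM. These ranges overlapped, with Nfkbid the higher of the 2 in 5 of 6 libraries.

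Bcl3 (chr7:19808462-19822770), encoding a nuclear member that binds p50 and p52 homodimers, averaged 25.7 RPKM, from 22.2 to 37.0 RPKM. Its range overlapped that of Nfkbie, which was nonetheless the higher in 6 of 6 libraries. Nfkbib (chr7:28758251-28767512), encoding IkBbeta, the slowly replaced inhibitor, was the lowest at 19.1 RPKM, from 16.4 to 21.5 RPKM. The order of the 6 was the same with the length of the longest transcript, although Nfkbiz then averaged 140 RPKM and Bcl3 34.4 RPKM. Classical members made up 67.9% to 72.7% of the summed family RPKM in the controls and 69.1% to 71.4% in those labelled Ythdf2 cKO, so the balance of classical and nuclear transcripts overlapped between the groups. Exons of Sirt2 and Ccer2 on the other strand overlap 1.94% and 14.5% of those of Nfkbib, and exons of Gm16175 overlap 6.51% of those of Bcl3. Whether counting used strand is not given in the sources used here. The files set 1.43% to 2.21% of records aside as ambiguous. Reads in these overlaps may have been left out of the members' counts or assigned to either gene.

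**Figure D1:**
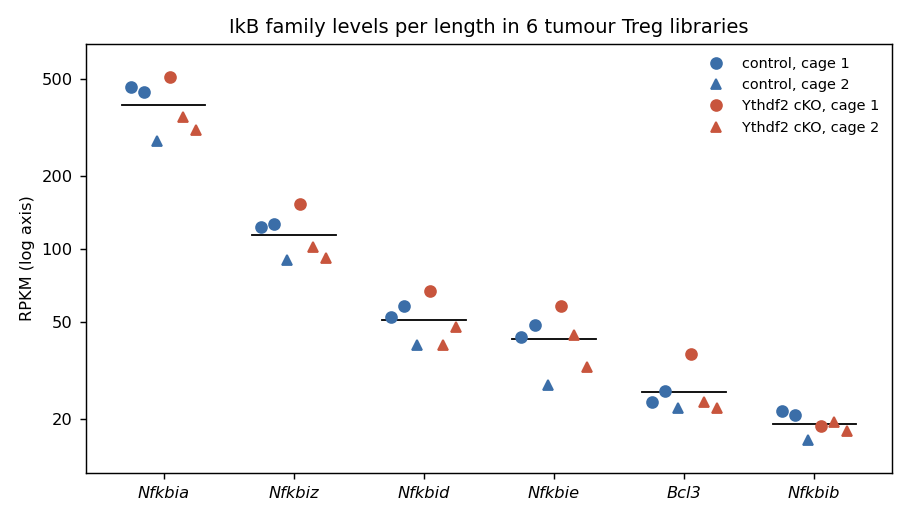
Level per length (RPKM, log axis) of the 6 IkB family genes, with 1 point per library, blue for control, red for Ythdf2 cKO, circles for cage 1 and triangles for cage 2, and a bar at the mean of the 6. Nfkbia, at 279 to 514 RPKM, lies above every other member in each library, and Nfkbib is the lowest member in each.

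No member of the family differed between the groups past the threshold. Of 13172 genes tested with the edgeR quasi-likelihood test, 0 were called in either direction (0% of genes), with 213 at an unadjusted p under 0.05 (1.62%), and DESeq2 and limma-voom also called 0 (279 and 239 at an unadjusted p under 0.05). Of the 6 members, 0 were called, 0 had an unadjusted p under 0.05 with edgeR, and 4 had a log2 fold change above 0, against 49.3% of all genes. The groups overlapped in CPM for all 6, where 7.62% of genes did not overlap (3.4% with Ythdf2 cKO higher, 4.22% lower). The median over the members was 0.032 and that over all genes -0.0049. It turned to -0.081 when control replicate 3 was left out and to -0.14 when Ythdf2 cKO replicate 1 was, so its sign rests on these libraries.

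Among the classical inhibitors, Nfkbia was at 752, 712 and 450 CPM in control replicates 1, 2 and 3. In Ythdf2 cKO replicates 1, 2 and 3 it was at 827, 565 and 500 CPM. The groups overlapped widely, and the 3 lowest values were those of cage 2. As log2 fold change (Ythdf2 cKO over control) this gave -0.017, standard error 0.27, 95% interval from -0.65 to 0.62 (adjusted p = 1). In linear terms that interval runs from 0.637-fold to 1.53-fold for this fit, which leaves cage out.

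Nfkbib was at 46.7, 45.1 and 35.7 CPM in control libraries, against 40.5, 42.4 and 38.6 CPM in those labelled Ythdf2 cKO. It was the steadiest member, with a log2 fold change of -0.072, standard error 0.18, interval from -0.50 to 0.35 (adjusted p = 1). Nfkbie stood at 132, 148 and 83.9 CPM in the controls. The Ythdf2 cKO-labelled libraries held 178, 136 and 99.6 CPM, with the highest value in replicate 1 and the groups overlapping. Its log2 fold change was 0.18, standard error 0.28, interval from -0.47 to 0.83 (adjusted p = 1). It stood at -0.0049 when control replicate 3 was left out and -0.055 when Ythdf2 cKO replicate 1 was.

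The nuclear members gave the same picture. Nfkbid was at 124, 136 and 94.8 CPM in control libraries, against 159, 94.6 and 112 CPM in those labelled Ythdf2 cKO (log2 fold change 0.039, standard error 0.23, interval from -0.50 to 0.58, adjusted p = 1). Nfkbiz was at 622, 636 and 454 CPM against 768, 513 and 461 CPM (log2 fold change 0.025, standard error 0.24, interval from -0.54 to 0.59, adjusted p = 1). In both genes the extremes lay among the Ythdf2 cKO-labelled libraries or at control replicate 3, and the groups overlapped.

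Bcl3 was at 58.3, 64.4 and 55.1 CPM in control libraries, against 91.6, 57.9 and 55.0 CPM in those labelled Ythdf2 cKO. Only Ythdf2 cKO replicate 1 stood above the rest, and the other 5 libraries lay within 10 CPM of each other. The log2 fold change of 0.20 (standard error 0.23, interval from -0.33 to 0.73, adjusted p = 1) was the largest of the 6, and it turned to -0.075 without that library.

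More members were called by cage than by genotype. With genotype and cage as terms, 4 of the 6 members were called as lower in cage 2 than in cage 1 and 0 as higher. In all, 3.68% of the genes tested were called lower and 7.83% higher, or 485 and 1031 genes, and 732 and 646 when libraries were scaled by total counts alone. All 6 members lay below 0, where 50.8% of genes lay above it. Nfkbia averaged 764 ± 58.1 CPM in cage 1 and 505 ± 57.9 CPM in cage 2 (SD, n = 3 each). The fitted log2 difference, with genotype as a term, was -0.67 with a standard error of 0.12, or 0.629-fold (edgeR adjusted p = 0.00754). Nfkbiz averaged 675 ± 80.5 and 476 ± 32.2 CPM (log2 difference -0.56, adjusted p = 0.0166). Nfkbie averaged 153 ± 23.1 and 106 ± 26.5 CPM (-0.67, adjusted p = 0.0278), and Nfkbid 139 ± 17.7 and 100.5 ± 10.0 CPM (-0.54, adjusted p = 0.0372).

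The remaining pair did not pass. Bcl3 averaged 71.4 ± 17.7 and 56.0 ± 1.65 CPM (log2 difference -0.43, adjusted p = 0.143). Nfkbib averaged 44.1 ± 3.26 and 38.9 ± 3.36 CPM (-0.18, adjusted p = 0.582). The cages did not overlap in CPM for Nfkbia, Nfkbid, Nfkbiz and Bcl3, 4 of 6 members, where cage 2 lay wholly below cage 1 for 12.2% of all genes. Each call of a member ended without at least 1 of the libraries, with the difference still below 0. That of Nfkbia ended without Ythdf2 cKO replicate 1, where the difference was no smaller but its standard error larger (-0.71, standard error 0.17, edgeR adjusted p = 0.0503). For Nfkbiz it ended without Ythdf2 cKO replicate 1 (-0.48, adjusted p = 0.143) or replicate 3 (-0.52, adjusted p = 0.0806). For Nfkbie it ended without control replicate 2 (-0.62) or 3 (-0.58) or Ythdf2 cKO replicate 1 (-0.75) or 3 (-0.59). The call of Nfkbid ended without any library other than control replicate 1 (from -0.60 to -0.46). With the melanoma markers as a covariate, added after the data were seen, 0 of the 6 were called by cage (3 of all genes). The values were then -0.69 for Nfkbia, -0.77 for Nfkbie, -0.38 for Nfkbid, -0.13 for Nfkbiz, -0.81 for Nfkbib and 0.62 for Bcl3, with standard errors from 0.51 to 0.74. Tumour RNA and cage cannot be told apart in these libraries.

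**Figure D2:**
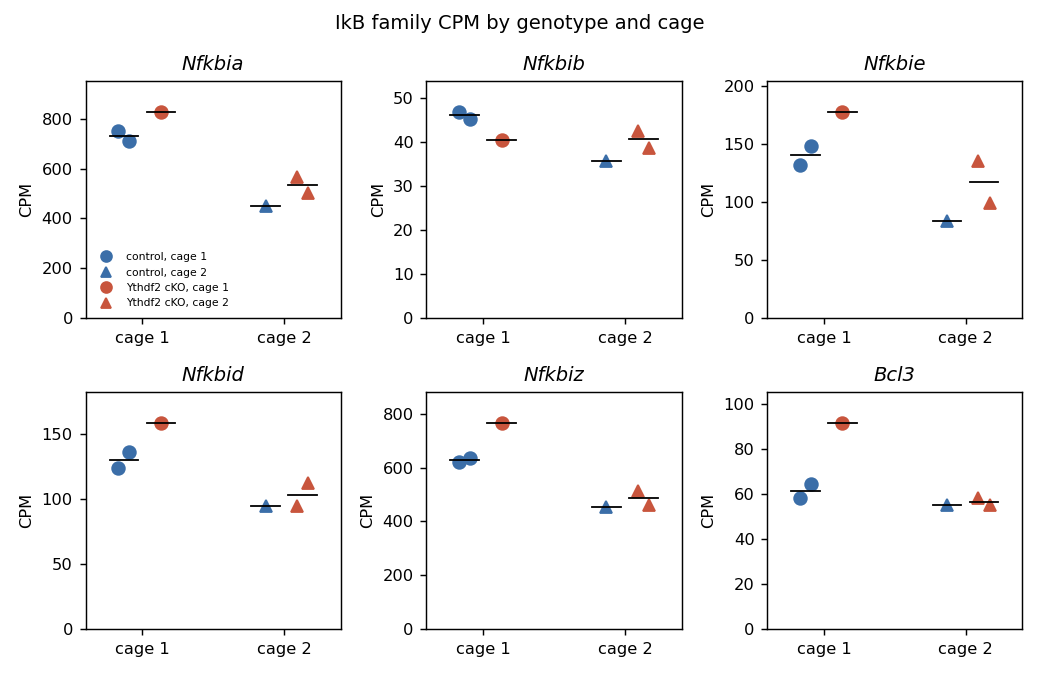
TMM-scaled CPM of each IkB family gene by cage (x axis) and genotype (colour), with 1 point per library and a bar at the mean of each genotype within a cage. Nfkbia lies at 712 to 827 CPM in cage 1 and 450 to 565 CPM in cage 2, while Nfkbib averages 44.1 and 38.9 CPM.

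The general Treg markers moved with cage in the same direction. Of 12 such markers, 8 were called as lower in cage 2 and 0 as higher, where 3.68% and 7.83% of all genes were. Their median log2 difference was -0.64, beside -0.55 for the IkB family and 0.013 for all genes. For 10 of the 12, cage 2 lay wholly below cage 1, as for 12.2% of all genes. The summed CPM of the 12 ran from 7678 to 8362 in cage 1 and from 4595 to 6262 in cage 2. In bulk samples, fewer cells of a type and less RNA per cell cannot be told apart.

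Scaling the libraries to the 10 Treg markers outside the NF-kB target list, chosen after the data were seen, brought the cage differences of 4 members close to 0. They were -0.048 for Nfkbia, -0.050 for Nfkbie, 0.092 for Nfkbid and 0.059 for Nfkbiz, and 0 of the 6 were called (0.121% of genes called lower and 34% higher on this scale, where the median of all genes moved to 0.64). The 95% interval of the Nfkbia difference ran from -0.33 to 0.23. Bcl3 stood at 0.20 (interval from -0.25 to 0.64). Nfkbib turned to 0.44, with an interval from 0.0090 to 0.87 and an adjusted p of 0.102.

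**Figure D3:**
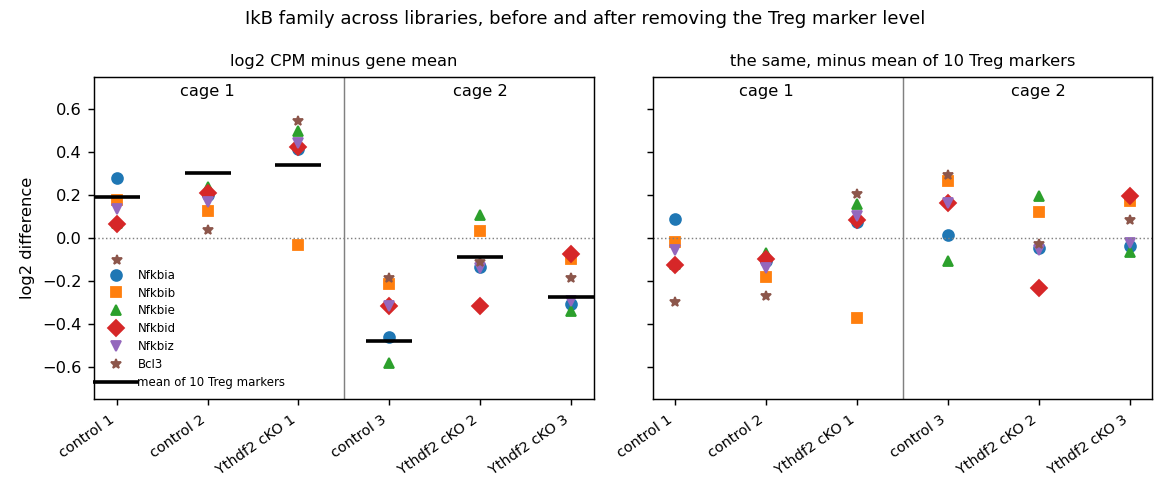
Each IkB family gene in each library as log2 CPM (prior count 2) minus its mean over the 6 libraries, with the mean of 10 Treg markers as a black bar (left), and the same after that mean was subtracted (right). On the left the mean of the Treg markers lies between -0.48 and 0.34, with Nfkbib at -0.030 and Bcl3 at 0.55 in Ythdf2 cKO replicate 1, and on the right Nfkbia stays between -0.10 and 0.089.

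Within cages, Nfkbia, Nfkbie and Nfkbiz were higher in the Ythdf2 cKO-labelled libraries than in each control of the same cage in both cages, 3 of 6 members, where 14.5% of all genes were. Nfkbid and Bcl3 were above both controls in cage 1 and, on the TMM scale, split around the control in cage 2. Nfkbib lay below both controls in cage 1 and above the control in cage 2. The mean log2 differences within cages 1 and 2 were 0.34 and 0.47 for Nfkbie, 0.18 and 0.24 for Nfkbia, 0.29 and 0.099 for Nfkbiz, and 0.58 and 0.035 for Bcl3. With 1 library in an arm of each cage, these have no replicate check, and no other scaling was tried. Control replicate 3, the only control of cage 2, had a TMM factor of 0.713, against 1.04 to 1.09 elsewhere. Before scaling, Nfkbid had 601 reads in control replicate 3, against 980 and 1079 in Ythdf2 cKO replicates 2 and 3. Bcl3 had 349 against 600 and 530. These libraries held 8923124, 9960861 and 9263893 reads in genes, so the split of both genes rests on the scaling. Of 15 melanoma markers, 14 were below each control of the same cage in both cages and 0 above, where 18.5% and 14.5% of all genes were. The part of tumour RNA in the within-cage differences was not tested.

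With cage as a term, the log2 fold change of Nfkbie was 0.41, standard error 0.16, interval from 0.057 to 0.77 (unadjusted p = 0.0277, adjusted p = 0.455). It was the only one of the 6 with an unadjusted p under 0.05, where 10.2% of all genes were, and 0 members and 0% of genes were called. The others were 0.31 for Bcl3, 0.21 for Nfkbia, 0.21 for Nfkbid, 0.19 for Nfkbiz and -9.1e-04 for Nfkbib (adjusted p from 0.536 to 0.999). On this fit 5 of 6 members lay above 0, where 46.3% of genes did, and the family median was 0.21 beside -0.041 for all genes. On the scale of the 10 Treg markers with cage as a term the values were 0.22 for Nfkbie, 0.12 for Bcl3, 0.017 for Nfkbid, 0.012 for Nfkbia, -0.0013 for Nfkbiz and -0.20 for Nfkbib. Of the 12 Treg markers, 5 were above each control of the same cage in both cages, where 14.5% of all genes were.

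Whether the genotype difference itself differed between cages was tested as an interaction, and 0 of the 6 members were called (0.0456% of genes, 0.0152% as lower in cage 2). At an unadjusted p under 0.05 stood 0 of the 6 and 14.3% of genes, and 3 of the 6 lay above 0, where 59.5% of genes did. Bcl3 had the smallest unadjusted p of the 6, at 0.0949. Its interaction term was -0.54 (standard error 0.29, adjusted p = 0.429).

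**Figure D4:**
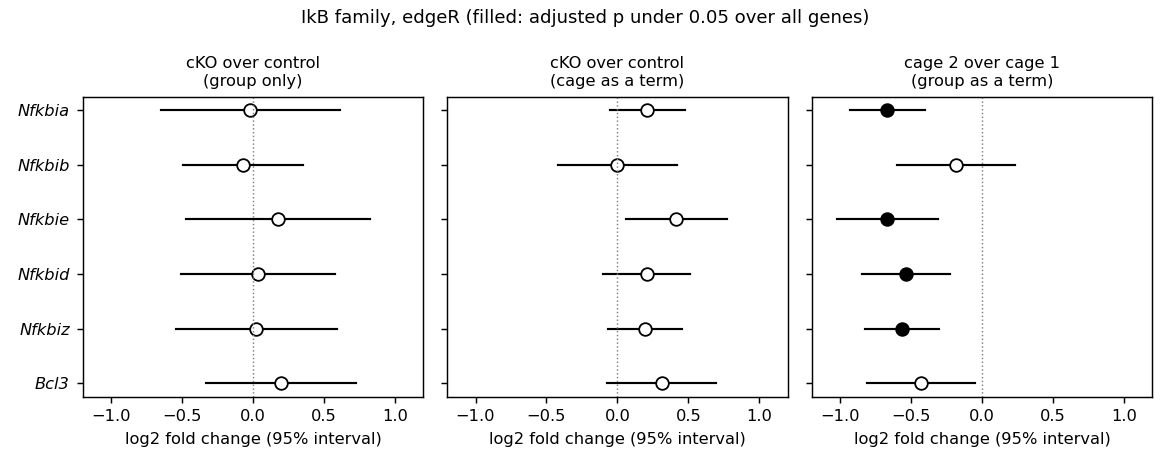
Log2 fold changes of the 6 IkB family genes with 95% intervals from edgeR, for Ythdf2 cKO over control with group as the only term (left), with cage as a term (middle), and for cage 2 over cage 1 (right). Filled points passed an adjusted p of 0.05 over 13172 genes: Nfkbia, Nfkbie, Nfkbid and Nfkbiz in the cage comparison, and none in the others.

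Of the 5 NF-kB subunits, which the IkB proteins bind, 0 were called between the groups, 4 lay above 0 and the median log2 fold change was 0.046. In cage 2, 2 were called as lower (median -0.59), where 3.68% of all genes were. Nfkb1, encoding p105, the precursor of p50, was at 454, 489 and 316 CPM in control libraries, against 636, 402 and 347 CPM in those labelled Ythdf2 cKO. Its cage difference was -0.67 (adjusted p = 0.00949), close to that of Nfkbia. Nfkb2, encoding p100, was at 187, 233 and 144 CPM against 309, 227 and 173 CPM (cage difference -0.59, adjusted p = 0.04001). Rel, encoding c-Rel, the subunit with a leading part in Treg development, was at 427, 417 and 197 CPM against 339, 324 and 266 CPM (genotype -0.17, adjusted p = 1).

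Genes of the IkB kinase and its activators split evenly between the groups, with 10 of 20 above 0, 0 called and a median of -0.0032. By cage, 3 of the 20 were called as lower, where 3.68% of all genes were. Traf3 had a cage difference of -0.72 (adjusted p = 0.0131). It is a brake on the kinase NIK and is counted again among the other NF-kB brakes below, so the list does not hold activators alone. Prkcq, a protein kinase of T cell receptor signalling, stood at 132 ± 32.4 CPM in control libraries, against 102 ± 18.7 CPM in those labelled Ythdf2 cKO (n = 3 each, SD; fold change on the log2 scale -0.38, adjusted p = 1). Bcl10 and Birc3, with -0.26 and 0.24, had the next smallest p of the list.

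The genes listed for the ubiquitination and release of IkB had a median cage difference near 0. Of 15, 0 were called by cage or genotype (11.5% and 0% of all genes), and the median was 0.043. Between the groups 11 of the 15 lay below 0 (median -0.11), where 49.3% of all genes lay above it. For 2 the groups did not overlap, with Ythdf2 cKO lower, as for 4.22% of all genes. Within cages, 5 were below each control in both cages and 2 above, where 18.5% and 14.5% of all genes were. By cage, Skp1a, a core subunit of the SCF ubiquitin ligase, was at 0.47 (adjusted p = 0.0878) and Nkiras2, which encodes a small GTPase that binds IkB, at 0.83 (adjusted p = 0.145). Btrc, encoding the F-box protein that recognizes phosphorylated IkB, was at 24.0, 15.4 and 20.7 CPM in control libraries, against 29.8, 23.4 and 30.1 CPM in those labelled Ythdf2 cKO (log2 fold change 0.47, standard error 0.25, adjusted p = 1). Its paralogue Fbxw11 was at 96.5 ± 3.84 and 86.0 ± 1.43 CPM (-0.17, standard error 0.13, adjusted p = 1), and Nedd8, the modifier that activates the ligase, at 48.8 ± 5.83 and 41.0 ± 1.65 CPM (-0.25, adjusted p = 1).

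Among 24 other brakes on NF-kB, 21 lay above 0 between the groups, against 49.3% of all genes, with a median of 0.16. Their summed CPM was 7477 in Ythdf2 cKO replicate 1. Replicates 2 and 3, at 5325 and 5168 CPM, lay within the control range of 4516 to 6101 CPM. Tnfaip3 alone ran from 1917 to 3294 CPM, so the sum leans on this gene. The count above 0 was not repeated with a library left out. Of the 24, 0 were called or had an unadjusted p under 0.05 (0% and 1.62% of all genes). For 15 of them the Ythdf2 cKO-labelled libraries lay above each control of the same cage in both cages, as for 14.5% of all genes. The same held for 5 of the 12 Treg markers. The smallest p values were those of N4bp1, at 153 ± 15.4 and 203 ± 47.5 CPM (log2 fold change 0.41, adjusted p = 1), Rnf11, at 33.5 ± 3.05 and 44.8 ± 8.79 CPM (0.42, adjusted p = 1), and Sirt1, at 42.5 ± 6.15 and 55.0 ± 6.23 CPM (0.37, adjusted p = 1; SD, n = 3). By cage, 8 of the 24 were called as lower (3.68% of all genes), with the smallest p for Zc3h12d (-0.84, adjusted p = 0.0104).

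Of 31 tested NF-kB targets in T cells, 15 lay above 0 between the groups, with a median of -0.0045 and 0 called. This list shares Nfkb1, Nfkb2, Rel, Relb, Birc2, Birc3 and Tnfaip3 with the lists above, so the counts of these lists are not independent. Within cages, 13 of the 31 were above each control in both cages and 1 below, where 14.5% and 18.5% of all genes were. Of the 12 Treg markers, 2 of which are also in this list, 5 were above and 0 below. In the cage comparison 9 of the 31 were called as lower and 0 as higher (3.68% and 7.83% of all genes). Tnfrsf9, encoding the costimulatory receptor 4-1BB, had a cage difference of -0.79 (adjusted p = 0.00375) and Gadd45b one of -0.94 (adjusted p = 0.00405). Between the groups the smallest p values were those of Cd69, an early activation marker (0.46), Bcl2l1, the gene of the survival protein BCL-XL (-0.27), and Cd83 (-0.68, adjusted p = 1 for each). Cd69 reached 441 CPM in Ythdf2 cKO replicate 1, against 202 to 221 CPM elsewhere, the same library in which Bcl3 stood out.

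Several members of the family are also early-response genes, and the preparation included a warm tissue digestion. Of 28 immediate-early and dissociation genes, 18 lay above 0 between the groups (median 0.058, 0 called). Their summed CPM ran from 7947 to 9417 in the controls and from 7940 to 10737 in those labelled Ythdf2 cKO, with the highest in replicate 1. By cage 7 of the 28 were called as lower and 2 as higher (3.68% and 7.83% of all genes). Junb had a cage difference of -0.78 (adjusted p = 0.00413) and Ier5 of -0.72 (adjusted p = 0.00539). Fosb, Klf6 and Klf4 had genotype differences of 0.49, 0.29 and 0.47 (adjusted p = 1 for each). The part of this response in the members' values was not tested.

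Markers of other cell types were followed because such cells also express the family. All 18 macrophage and monocyte markers had a read in at least 1 library, and their sum ran from 488 to 979 CPM in control libraries, against 503 to 700 CPM in those labelled Ythdf2 cKO. Ccr2 alone was at 345 to 668 CPM, so the sum leans on this gene. Adgre1 was at 0 in Ythdf2 cKO replicate 1 and reached 11.7 CPM in control replicate 3. The sum was highest in control replicate 3, where Nfkbia, Nfkbib, Nfkbie and Nfkbiz were lowest. Neutrophil markers, 7 of 7 with a read, summed to at most 3.63 CPM in either group. Of 7 dendritic cell markers all had a read, with sums from 17.3 to 28.7 CPM in control libraries, against 36.3 to 44.1 CPM in those labelled Ythdf2 cKO. The 8 B and plasma cell markers summed to 84.4 to 202 CPM and 99.1 to 132 CPM. Among 8 natural killer and CD8 T cell markers Klrb1c was at 0 in every library, and the sums ran from 18.1 to 24.6 CPM and from 20.5 to 38.5 CPM. The 10 fibroblast and endothelial markers summed to 82.5 to 122 CPM and 63.4 to 323 CPM, and the 6 erythroid markers to 0.795 to 27.3 CPM and 19.6 to 149 CPM. By cage, 7 of 16 tested macrophage and monocyte markers were called as higher in cage 2 and 1 as lower (median log2 difference 3.25). Of all genes, 7.83% were called higher and 3.68% lower. Higher calls also fell on 3 of 5 tested fibroblast and endothelial markers (median 3.88) and 2 of 6 erythroid markers (median 2.51), with 0 lower. Of the tested neutrophil, dendritic and B cell markers 0 were called by cage, and of 3 natural killer and CD8 T cell markers 1 was lower. Within cages, 11 of 16 macrophage and monocyte markers were below each control in both cages and 0 above, where 18.5% and 14.5% of all genes were. The part of these cells in the members' values was not tested.

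Within the family, Nfkbia and Nfkbiz had the most similar course over the 6 libraries. Their centred log2 CPM differed by 0.085 (root mean square), and 0.51% of 9420 genes lay closer to Nfkbia. Nfkbid was next to Nfkbiz at 0.12. Nfkbib had the most distant nearest member, Nfkbiz at 0.23, where 29.9% of the 9420 genes lay closer and their median was 0.30. Outside the family, the 3 genes closest to Nfkbia were Rbm38 (0.035), Capn1 (0.038) and Frmd4b (0.041), against a median of 0.41 over all candidates. Closest to Nfkbiz were Psd4, Spata13 and Dgka (0.049 to 0.051), to Nfkbid Kdm7a (0.032), Dusp10 (0.046) and Rara (0.052), and to Nfkbie Tnik, Ankrd44 and Ubxn11 (0.049 to 0.059). For Bcl3 they were Sap130 (0.039), Emd (0.052) and Cdk13 (0.053), and for Nfkbib Cnot3 (0.017), Elk4 (0.030) and Sephs2 (0.037). All points share the same 6 libraries.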

How the data were processed

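Each library has 1 deposited file of unnormalized read counts by gene identifier, closed by HTSeq summary rows, per the file contents. Trimmomatic 0.39, HISAT2 2.1.0, HTSeq, DESeq2 and mm10 are named in the submitters' processing notes, without their roles. Annotation release and strand setting: not given in the sources used here. Of 54446 gene rows, 54409 matched GENCODE M21 by identifier without version. Rows that name no gene stayed out. Reads in no gene were 24.6% (control replicate 3) to 35.8% (Ythdf2 cKO replicate 1) of all records.

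Genes were filtered with filterByExpr (minimum count 10, minimum total 15), scaled by TMM and tested with the quasi-likelihood test of edgeR 4.0.16 in R 4.3.3, all 6 libraries in 1 fit. Benjamini-Hochberg adjustment ran over all 13172 genes, threshold 0.05. Standard errors are the log2 fold change over the root of the F statistic. Cage came from the titles and was tested with group as a term. Log2 CPM used a prior count of 2. Alternatives were DESeq2 1.42.0, limma-voom (limma 3.58.1), other scalings, filters and terms, and each library left out. Named genes were the members, checks of the labels, the genes of each list with the smallest p, and the nearest patterns (mean CPM of at least 5). The result of 1 gene that this rule names is not reported here. The members and lists were chosen with earlier results of these data known. Every pair of libraries differed beyond sampling noise (lowest chi-square over its degrees of freedom 17.4). The code was tested on simulated data.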

Additional observations from a re-analysis of the deposited data

How the results depend on the processing

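Without the low-count filter, 33 genes were called between the groups (26 higher, 7 lower, none of them a member of the IkB family) where 0 were with it. In the cage comparison the 1516 calls became 2349 with DESeq2, 2347 without the filter, 849 with cage as the only term, 2293 at a threshold of 0.1, 4492 on the Treg marker scale and 3 with the melanoma markers as a covariate, and from 660 to 1234 when 1 library was left out. The calls of the interaction went from 6 to 30 under scaling by total counts. The family median log2 fold change between the groups spanned -0.14 to 0.14 when 1 library was left out.

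The correlations of same-numbered libraries were 0.41, -0.24 and 0.55 for replicates 1, 2 and 3. Replicates 1 and 3 share a cage between the groups and replicate 2 does not, so these values cannot tell pairing from cage. With the number as a replicate block, 0 genes were called between the groups, 224 had an unadjusted p under 0.05 and the family median was 0.015.

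Between the groups, the sign of Nfkbia turned under total counts (0.079), under the cage term (0.21) and on the Treg marker scale with cage (0.012), and its leave-one-out values ran from -0.27 to 0.12. Nfkbib turned with total counts (0.042). With the melanoma covariate Nfkbid turned to -0.012 and Nfkbiz to -0.035, and Nfkbiz also on the Treg marker scale with cage (-0.0013). Leave-one-out values ran from -0.055 to 0.36 for Nfkbie, from -0.20 to 0.18 for Nfkbid, from -0.23 to 0.16 for Nfkbiz and from -0.075 to 0.33 for Bcl3. By cage, the sign turned on the Treg marker scale for Nfkbib (0.44), Nfkbid (0.092), Nfkbiz (0.059) and Bcl3 (0.20), with the melanoma covariate for Bcl3 (0.62), and without control replicate 3 for Nfkbib (0.019, leave-one-out from -0.37). Scaled by total counts, where the median of all genes by cage moved to -0.32, Bcl3 passed the threshold (-0.76, adjusted p = 0.0464), and the cage differences were -1.004 for Nfkbia, -1.002 for Nfkbie, -0.87 for Nfkbid, -0.90 for Nfkbiz and -0.52 for Nfkbib. The causes were not tested. With cage as the only term, the cage call of Nfkbie (-0.52), Nfkbid (-0.47) and Nfkbiz (-0.50) ended. The Treg marker scale and the melanoma covariate by cage were chosen after seeing the data.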
